A study of Mus musculus with 28 samples.

Results

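Cholangiocytes are the epithelial cells that line the bile ducts. When the liver is injured, small ductules expand around the portal tracts, a change called the ductular reaction, and cells that express biliary keratins and adhesion molecules become more frequent. The 9 genes described here are used to mark these cells: the keratins Krt7, Krt19, Krt8 and Krt18, the adhesion molecule Epcam, the tight junction protein Cldn4, the chloride channel Cftr, the transcription factor Sox9, and Spp1, which encodes the secreted glycoprotein osteopontin. They were taken by symbol from the 49585 annotated features of the count table, and each matched 1 Ensembl gene. Krt7 and Krt19 are largely confined to ducts in a healthy liver, whereas Krt8 and Krt18 also form the filaments of hepatocytes, Sox9 is present in some periportal hepatocytes, and Spp1 is also made by macrophages and stellate cells.

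Liver RNA was sequenced from C57BL/6JOlaHsd mice aged 5 to 7 months on standard chow, killed after a short fast. There were 28 libraries in 4 groups of 7, with wild-type (WT) and SIRT6-tg mice of each sex. SIRT6-tg mice carry a transgene that overexpresses the deacylase SIRT6 in the whole body rather than in hepatocytes alone, and the driver of the transgene was not given in the sources used here. The comparison of SIRT6-tg with WT in each sex asks how the genes respond to SIRT6 overexpression, and the comparison of the sexes is described for WT and SIRT6-tg separately. Whole liver was measured, so fewer ductal cells and less RNA per cell cannot be told apart.

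Each library held between 18758863 and 35393069 reads assigned to genes. The labels matched the transgene, because Sirt6 was 2.73 ± 0.511 counts per 1000000 assigned reads (CPM) in male WT and 281 ± 55.2 CPM in male SIRT6-tg, and 2.88 ± 1.55 CPM in female WT and 30.2 ± 12.5 CPM in female SIRT6-tg (mean ± SD, n = 7). The median mitochondrial share of reads was 4.10% in male WT, 4.67% in male SIRT6-tg, 5.63% in female WT and 6.04% in female SIRT6-tg. Its part in the results was not tested. The hepatocyte gene Alb averaged 108700 CPM, and all 9 duct genes were detected in at least 27 of the 28 libraries. Male WT replicate 3 stood apart in genes of neighbouring organs. It held 165 reads of the 9 listed pancreas genes other than Cela1, against 1 to 20 in the other libraries, and 47 reads of Tff2, a gallbladder and stomach gene, against 0 to 27. The same library had the most Krt19, Krt7 and Cftr reads of the males (100, 46 and 13, against at most 66, 34 and 7 in the others). The part of this tissue in those levels was not tested, and values without the library are given beside the results.

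On the mm10 build, Krt7 lies at chr15:101411043-101430313, Krt8 at chr15:101996698-102004482 and Krt18 at chr15:102028180-102032027. Krt19 lies at chr11:100140810-100148665, Sox9 at chr11:112782224-112787760, Epcam at chr17:87635979-87651129, Spp1 at chr5:104435118-104441050, Cldn4 at chr5:134945119-134946934 and Cftr at chr6:18170687-18322768. All are protein-coding genes, and reads over their exons were counted.

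The promoters of the 3 genes that differed between the sexes are shown here, as 250 bases before the RefSeq transcription start on the mouse GRCm38.p6 build, read 5′ to 3′ on the gene's own strand. Krt8 (chr15:102004343-102004592, minus strand) and Krt18 (chr15:102027966-102028215, plus strand) belong to neighbouring genes. Spp1 has 2 listed starts, and the upstream one is given (chr5:104434861-104435110, plus strand). Capitals mark matches on either strand to the 7 motifs searched.
Krt8: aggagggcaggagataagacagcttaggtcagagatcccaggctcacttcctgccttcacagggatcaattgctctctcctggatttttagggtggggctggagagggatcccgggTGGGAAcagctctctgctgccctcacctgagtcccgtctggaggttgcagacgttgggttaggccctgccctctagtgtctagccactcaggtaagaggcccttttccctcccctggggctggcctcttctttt
Krt18: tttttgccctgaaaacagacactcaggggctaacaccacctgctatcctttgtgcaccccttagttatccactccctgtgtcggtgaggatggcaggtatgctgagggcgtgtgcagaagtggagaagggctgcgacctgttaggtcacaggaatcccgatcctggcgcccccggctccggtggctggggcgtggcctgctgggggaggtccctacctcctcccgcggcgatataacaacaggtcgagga
Spp1: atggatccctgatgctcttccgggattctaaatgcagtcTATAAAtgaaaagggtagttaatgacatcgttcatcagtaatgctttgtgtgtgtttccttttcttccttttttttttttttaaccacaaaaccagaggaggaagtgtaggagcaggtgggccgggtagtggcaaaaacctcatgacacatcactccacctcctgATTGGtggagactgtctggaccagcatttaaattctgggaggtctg

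The motifs were the TATA box (TATAAA), the CCAAT box (CCAAT), the GC box (GGGCGG), and the letters bound by AP-1 (TGANTCA), STAT5 (TTCNNNGAA), the Notch effector RBPJ (TGGGAA) and TEAD factors (GGAATG). Krt8 held 1 RBPJ match, a motif present in 21.6% of 32851 promoters of the same length. Krt18 held none of the 7 motifs. The upstream Spp1 promoter held a TATA box match, found in 12.4% of promoters, and a CCAAT box match, found in 33.8%. The GC box was present in 32.7% of promoters, AP-1 in 6.75%, STAT5 in 7.02% and TEAD in 12.6%. Of the 9 genes, 7 were in the RefSeq promoter table, and Krt19 and Sox9 were not matched. Of the other promoters, those of Krt7, Epcam, Cftr and Cldn4 held GC boxes, and the Cldn4 promoter also held an AP-1 match in 2 places. These matches describe letters only and do not show binding.

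The 9 genes spanned a wide range of expression. On a per-length scale (CPM per kilobase of the principal transcript, mean over 28 mice), Krt18 reached 136, Krt8 63.9 and Spp1 32.9. The remaining genes were far lower, with Sox9 at 1.41, Epcam at 1.11, Krt19 at 0.729, Krt7 at 0.175, Cldn4 at 0.104 and Cftr at 0.0258. Over individual mice, the ranges of neighbours in this order overlapped, except that the lowest Spp1 value (14.7) lay above the highest Sox9 value (2.38). The keratins that hepatocytes share were thus the abundant ones, while the keratins restricted to ducts were close to the detection limit of whole liver. Krt7 was counted 537 times and Krt19 846 times in all 28 libraries together, against 147000 for Krt18.

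**Figure D1:**
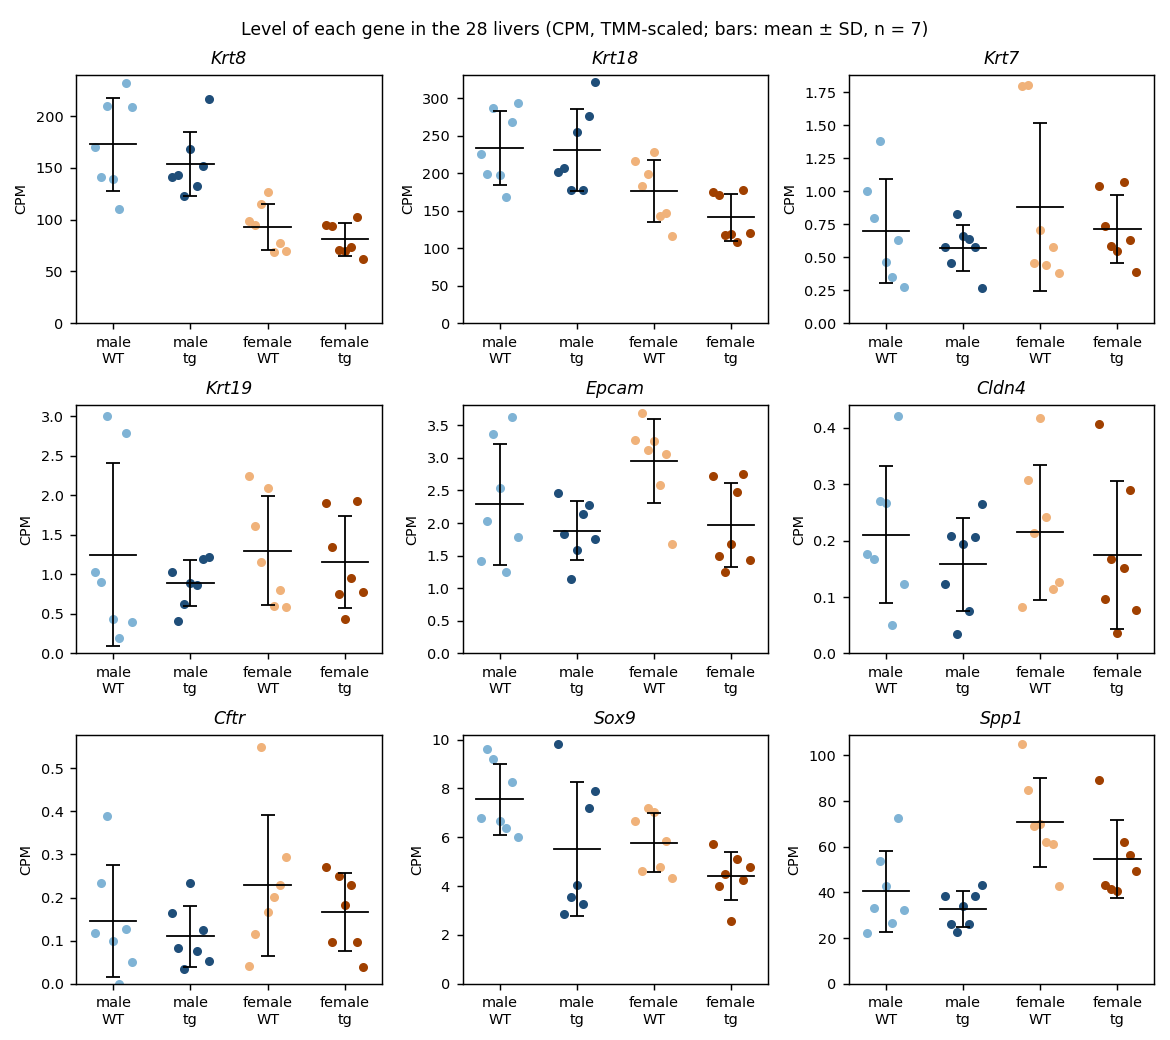
Level of each of the 9 genes (CPM after TMM scaling, linear axes from 0) in WT and SIRT6-tg (tg) livers of each sex. Points are mice, the horizontal line is the mean and the bar is the SD (n = 7). The male points for Krt8 lie mostly above the female points, those for Spp1 mostly below, and WT and SIRT6-tg overlap within each sex for every gene.

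None of the 9 genes passed the test between SIRT6-tg and WT in either sex, although every estimate was below 0. Genotype effects were tested with edgeR's quasi-likelihood test over 21583 genes, with Benjamini-Hochberg adjustment and a threshold of 0.05. In males, 9.68% of all genes tested were called higher in SIRT6-tg and 11.0% lower. In females the corresponding shares were 0.0232% and 0.00463%. At an unadjusted p under 0.05, 1 of the 9 genes passed in males (Sox9) and 1 in females (Epcam), beside 32.6% and 5.62% of all genes tested. DESeq2 called 0 of the 9 in each sex, beside 23.2% and 0.259% of the genes to which it gave an adjusted p. The median log2 fold change of the 9 genes was -0.31 in males and -0.34 in females, beside 0.06 and 0.00 over all genes tested. Estimates were below 0 for 44.7% of all genes in males and 49.4% in females. Because the 9 genes varied together from mouse to mouse, as described below, these 9 estimates are not independent of one another.

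The ductal keratins were variable. Krt19, the type I keratin of bile ducts, ranged from 0.201 to 3.0 CPM in male WT (median 0.899) and 0.416 to 1.22 in male SIRT6-tg (median 0.893), from 0.589 to 2.25 in female WT (median 1.16) and from 0.437 to 1.93 in female SIRT6-tg (median 0.952). All 4 groups overlapped, and male WT was the most dispersed, with a coefficient of variation of 92.9% against 33% in male SIRT6-tg. The difference in spread was not tested. The log2 fold change in males was -0.50, with a 95% confidence interval from -1.43 to 0.44 (adjusted p = 0.498). It was -0.12 without male WT replicate 3, the library with the pancreas reads, and -0.19 without male WT replicate 6. In females it was -0.18 (-1.10 to 0.74, adjusted p = 1.00), and between -0.35 and -0.0074 without 1 library.

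Krt7, its type II partner in ducts, ranged from 0.272 to 1.38 CPM in male WT (median 0.632), 0.265 to 0.830 in male SIRT6-tg (median 0.578), from 0.379 to 1.81 in female WT (median 0.575) and from 0.387 to 1.07 in female SIRT6-tg (median 0.627). Female WT replicates 1 and 2 were at 1.80 and 1.81 CPM, and the other female WT mice were at or below 0.710 CPM. The log2 fold change was -0.29 in males (-1.05 to 0.48) and -0.30 in females (-1.05 to 0.44). The male value was -0.043 without male WT replicate 3, and the female value -0.039 without female WT replicate 1 and -0.028 without replicate 2. These intervals, from edgeR, include a halving as well as a modest increase. The Krt7 locus overlaps exons of Gm671 on the opposite strand, and no strand setting was given for the counting.

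Krt8 and Krt18 form the filament pair shared by hepatocytes and cholangiocytes, and their estimates were the most precise. Krt8 ranged from 110 to 232 CPM in male WT (median 170), 123 to 216 in male SIRT6-tg (median 143), from 68.4 to 126 in female WT (median 94.6) and from 61.8 to 103 in female SIRT6-tg (median 73.4). Its log2 fold change was -0.17 in males (-0.50 to 0.16, adjusted p = 0.520) and -0.20 in females (-0.53 to 0.13, adjusted p = 1.00). Without 1 library the male value lay between -0.28 and -0.085, and the female value between -0.27 and -0.12. Within each sex the genotypes overlapped.

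Krt18 ranged from 168 to 294 CPM in male WT (median 226), 177 to 321 in male SIRT6-tg (median 206), from 116 to 228 in female WT (median 184) and from 109 to 178 in female SIRT6-tg (median 121). Its log2 fold change was -0.02 in males (-0.36 to 0.32, adjusted p = 0.954) and -0.32 in females (-0.66 to 0.02, adjusted p = 0.925). The male value was the smallest of the 9, and its sign changed when any of 5 male libraries was left out.

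Epcam, an adhesion molecule of biliary epithelium and progenitor cells, had the largest estimate in females. It ranged from 1.68 to 3.69 CPM in female WT (median 3.12) and from 1.25 to 2.75 in female SIRT6-tg (median 1.68), and 4 of the 7 SIRT6-tg mice were below every WT mouse. The log2 fold change was -0.59 (-1.06 to -0.12), with an unadjusted p of 0.0153 and an adjusted p of 0.680 in the edgeR fit. In males Epcam ranged from 1.26 to 3.62 CPM in WT (median 2.03) and from 1.14 to 2.47 in SIRT6-tg (median 1.83), with a log2 fold change of -0.28 (-0.75 to 0.19), which was -0.14 without male WT replicate 6 and -0.19 without male WT replicate 3 or male SIRT6-tg replicate 3.

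Sox9, which specifies biliary fate, was the member nearest to the threshold in males. It ranged from 5.99 to 9.63 CPM in male WT (median 6.80) and 2.87 to 9.83 CPM in male SIRT6-tg (median 4.04). In 4 of the 7 male SIRT6-tg mice Sox9 lay below every WT mouse, and the other 3, at 7.18, 7.90 and 9.83 CPM, lay within or above the WT range. The log2 fold change was -0.46 (-0.91 to -0.01, adjusted p = 0.144 by edgeR). Without male SIRT6-tg replicate 1, the mouse with the highest level, it was -0.69 and passed the threshold (adjusted p = 0.0197). In females Sox9 ranged from 4.33 to 7.18 CPM in WT (median 5.86) and from 2.59 to 5.70 in SIRT6-tg (median 4.50), with 3 SIRT6-tg mice below all WT mice and a log2 fold change of -0.39 (-0.85 to 0.07).

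Spp1 encodes osteopontin, a cytokine-like protein that ducts secrete and that binds CD44 and integrins. It ranged from 22.2 to 72.7 CPM in male WT (median 33.3), 22.6 to 43.3 in male SIRT6-tg (median 34), from 42.9 to 105 in female WT (median 69.2) and from 40.7 to 89.1 in female SIRT6-tg (median 49.6). The log2 fold change was -0.31 in males (-0.77 to 0.16, adjusted p = 0.381) and -0.37 in females (-0.84 to 0.09, adjusted p = 1.00). The male medians differed by less than the spread within either male group, and the male change was -0.10 without male WT replicate 6.

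Cldn4, a claudin of duct tight junctions, and Cftr, the chloride channel of bile secretion, were at the limit of counting. Cldn4 had 1 to 10 reads per library, and its level ranged from 0.0346 to 0.421 CPM over the 28 mice. Cftr had 0 to 18 reads per library. It was at 0 in male WT replicate 5, the library with the lowest total. There a count of 0 allows up to 0.160 CPM without TMM scaling (3 counts, counting error only). Log2 fold changes were -0.44 (-1.38 to 0.50) in males and -0.34 (-1.28 to 0.59) in females for Cldn4, and -0.43 (-1.56 to 0.70) and -0.50 (-1.52 to 0.53) for Cftr. The Cftr values were 0.025 in males without male WT replicate 3 and -0.082 in females without female WT replicate 3. Without 1 library the Cldn4 values lay between -0.60 and -0.22 in males and between -0.69 and -0.12 in females. The confidence intervals describe these estimates only, and the smallest difference that could be detected at this depth was not measured.

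The genotype effect was not shown to differ between the sexes for any of the 9 genes. In edgeR's test of that difference, 1.2% of all genes were called higher and 3.84% lower, and 0 of the 9 were called. At an unadjusted p under 0.05, 0 of the 9 passed, beside 18.8% of all genes, and DESeq2 called 0, beside 9.05% of the genes to which it gave an adjusted p. The differences, as male effect minus female effect, ran from -0.31 for Krt19 to 0.31 for Epcam. For Sirt6 itself this difference was 3.29, so sex and transgene level cannot be told apart in this test.

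The choice of scaling bore on the male result. With library size alone and no TMM factor, the median log2 fold change over all genes in males was -0.22, and 3 of the 9 genes passed the threshold, which were Krt8 at -0.47 (adjusted p = 0.0297 by edgeR), Sox9 at -0.75 (adjusted p = 0.0119) and Spp1 at -0.61 (adjusted p = 0.0470). That scaling called 18.9% of all genes lower. The share of called genes that were higher in male SIRT6-tg was 46.8% with TMM, 35.7% with RLE scaling, 26.2% with upper-quartile scaling and 4.89% with library size alone. All 9 male estimates stayed below 0 under each of these scalings.

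**Figure D2:**
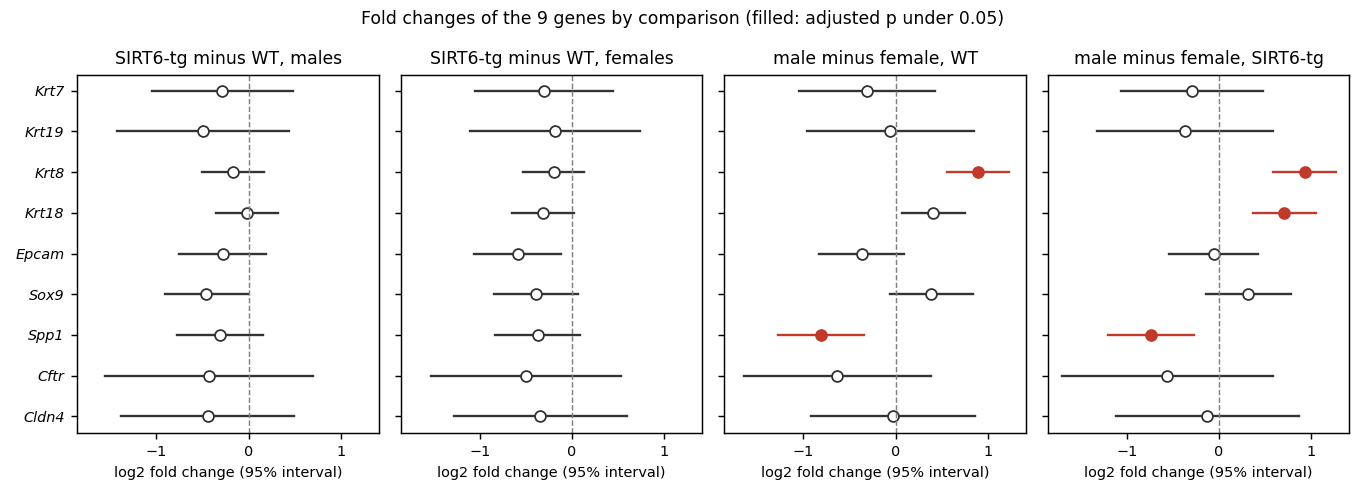
Log2 fold changes of the 9 genes (x axis) with 95% confidence intervals from the edgeR fit for SIRT6-tg against WT in males and in females, and for males against females in WT and in SIRT6-tg. Filled red points have an adjusted p under 0.05, which holds for none in the genotype comparisons, for Krt8 and Spp1 in WT, and for Krt8, Krt18 and Spp1 in SIRT6-tg.

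Between the sexes, 3 of the 9 genes passed the threshold in at least 1 genotype. Krt8 was higher in males, Spp1 was lower in males, and Krt18 was higher in males among SIRT6-tg mice. In WT, 6.65% of all genes tested were called higher in males and 5.71% lower, and 1 of the 9 genes was called in each direction. In SIRT6-tg, 12.9% were called higher and 10.2% lower, and 2 of the 9 were called higher and 1 lower. Sirt6 itself was higher in SIRT6-tg males than in SIRT6-tg females by 3.22 on the log2 scale. Sex and transgene level therefore cannot be told apart among SIRT6-tg mice. With upper-quartile scaling and with library size alone, the called genes in SIRT6-tg were 39.2% and 39% higher in males, against 55.9% with TMM. In WT, library size alone gave 86.8% higher, against 53.8%.

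Krt8 averaged 173 ± 44.9 CPM in male WT and 93.0 ± 22.4 CPM in female WT, and 154 ± 31.2 and 81.0 ± 15.8 CPM in male and female SIRT6-tg (SD, n = 7). In SIRT6-tg every male was above every female, and in WT 6 of 7 males were above every female. Groups that do not overlap in this direction were found for 3.58% of all genes in SIRT6-tg (2.56% in the opposite direction) and for 1.33% in WT (1.64%). The log2 difference of males over females was 0.89 ± 0.16 in WT (SE, adjusted p = 0.000343 by edgeR) and 0.93 ± 0.16 in SIRT6-tg (adjusted p = 0.000138). Both calls held under each alternative run.

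Krt18 averaged 234 ± 49.2 CPM in male WT and 176 ± 41.8 CPM in female WT, with a log2 difference of 0.41 (0.07 to 0.75, adjusted p = 0.107 by edgeR), which did not pass. In SIRT6-tg it averaged 231 ± 54.8 CPM in males and 142 ± 31.3 CPM in females, a log2 difference of 0.71 (0.37 to 1.04, adjusted p = 0.00245), with 6 of 7 males above every female. The WT difference passed with library size alone (0.61, adjusted p = 0.00480) and without female WT replicate 4 (0.50, adjusted p = 0.0458). The sizes of the WT and SIRT6-tg differences were themselves not shown to differ (0.30, interval -0.18 to 0.77).

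Spp1 averaged 40.5 ± 17.6 CPM in male WT and 70.7 ± 19.6 CPM in female WT, with 4 of 7 males below every female and a log2 difference of -0.80 (-1.27 to -0.34, adjusted p = 0.0175 by edgeR). In SIRT6-tg it averaged 32.8 ± 7.83 CPM in males and 54.6 ± 17.2 CPM in females, with 6 of 7 males below every female and a log2 difference of -0.74 (-1.20 to -0.27, adjusted p = 0.0196). The WT call was lost with library size alone (-0.59, adjusted p = 0.0559), and the SIRT6-tg call was lost without female SIRT6-tg replicate 1, whose level was the highest of its group (-0.58, adjusted p = 0.0534). The other 6 genes did not pass in either genotype. Among them, Sox9 had a log2 difference of 0.39 in WT and 0.32 in SIRT6-tg, and Cftr one of -0.63 and -0.56. The WT value of Cftr was -1.08 without male WT replicate 3 and -0.22 without female WT replicate 3.

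Markers of other cells also differed between WT males and females, where 6.65% of all genes were called higher in males. All 7 T cell genes were higher in WT males (median log2 difference 1.29), among them the T cell receptor partners Cd3g (1.32) and Cd3e (1.27), the coreceptor Cd8a (1.90) and the granule gene Nkg7 (1.77), with adjusted p of 0.000433, 0.000542, 1.37e-05 and 0.00099 by edgeR. Their summed level was 13.1 to 46.0 CPM in WT males (median 35) and 4.19 to 17 CPM in WT females (median 11.4). Of the lipid-associated macrophage genes, 5 of 7 were higher in WT males, among them Gpnmb (3.34) and Mmp12 (3.06), and 1 of 8 macrophage genes (Marco, 1.35, lost without any of 3 libraries) and 2 of 8 stellate cell genes (Col1a1, 1.67, and Col3a1, 1.10) were also higher. Of 8 hepatocyte genes, 2 were lower in WT males (Alb, -0.69, and Fgb, -0.58). Among SIRT6-tg mice the immune and stellate genes that passed were lower in males, namely 3 of 8 macrophage, 1 of 7 T cell and 5 of 8 stellate cell genes, with 0 of 7 lipid-associated macrophage genes. Over all genes in SIRT6-tg, 10.2% were called lower in males and 12.9% higher. Of the macrophage calls in SIRT6-tg, that of Marco was lost without any of 16 libraries and that of Timd4 without any of 11, and both with no filter. The part of these cells in the Krt8, Krt18 and Spp1 differences was not tested.

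Because Krt8 and Krt18 pair one to one in filaments, their ratio within each library was also measured, which needs no scaling between libraries. Per length, the geometric mean of Krt8 over Krt18 was 0.536 in male WT, 0.493 in male SIRT6-tg, 0.387 in female WT and 0.422 in female SIRT6-tg. The log2 ratio ranged from -1.06 to -0.66 in male WT (median -0.94), -1.31 to -0.87 in male SIRT6-tg (median -0.98), from -1.58 to -1.18 in female WT (median -1.37) and from -1.41 to -1.02 in female SIRT6-tg (median -1.24). Krt8 was thus below Krt18 in every liver. The genotypes did not differ past the threshold, with differences of -0.12 in males (exact two-sided permutation p = 0.0967, adjusted p = 0.235) and 0.12 in females (p = 0.118, adjusted p = 0.235), each of 7 against 7 mice.

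Between the sexes the ratio was higher in WT males by 0.47 on the log2 scale, and all 7 males were above all 7 females (exact permutation p = 0.000583, the smallest that 3432 splits allow, adjusted p = 0.00233). In SIRT6-tg the difference was 0.22, with 4 of 7 males above every female (exact permutation p = 0.0140, adjusted p = 0.0280). These sex comparisons of the ratio were added after the levels had been seen. The ratio of Krt19 to Krt7 showed no difference past the threshold in the same exact test, with log2 differences between genotypes of 0.16 in males (p = 0.731) and -0.05 in females (p = 0.871), and between sexes of -0.20 in WT (p = 0.636) and 0.02 in SIRT6-tg (p = 0.963).

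**Figure D3:**
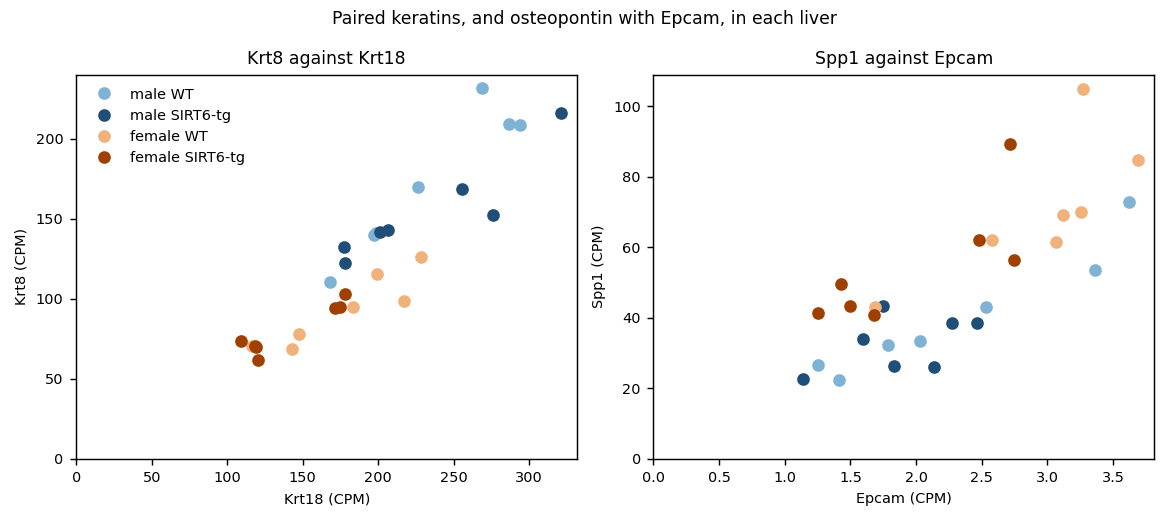
Krt8 against Krt18 (left) and Spp1 against Epcam (right) in each of the 28 livers, in CPM on linear axes, coloured by group. Krt8 and Krt18 rise together, with most male points above the female points at a similar Krt18 level. Spp1 rises with Epcam, with most female points above the male points.

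The genes varied together from mouse to mouse within groups. Over 28 mice, after the mean of each group had been removed from log2 CPM, all 36 pairs of the 9 genes had a Pearson r above 0, and 19 pairs passed an adjusted p of 0.05 in a test of 100000 permutations within groups. The same number passed by rank. Krt8 and Krt18 were the closest pair (r = 0.92, rho = 0.89, adjusted permutation p = 0.00018 for each, raw p = 1e-05, the smallest these permutations can give), with r of 0.92 to 0.97 within the 4 groups and 0.90 without the 2 mice farthest from the median. Epcam and Spp1 followed (r = 0.83, rho = 0.83, adjusted permutation p = 0.00018 for each), with r of 0.53 to 0.96 within groups and 0.80 without the 2 farthest mice.

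Krt19 passed with 7 of the other 8 genes, Cftr being the exception, and its r reached 0.74 with Krt8 (rho = 0.71, adjusted permutation p = 0.00115 and 0.0015) and 0.71 with Spp1 (rho = 0.72, adjusted permutation p = 0.0015 and 0.00084). Without the 2 farthest mice these were 0.68 and 0.67. Krt7 passed with Krt19 only (r = 0.60, rho = 0.58, adjusted permutation p = 0.00761 and 0.00931), where r was 0.58 without the 2 farthest mice but ran from -0.28 to 0.78 within groups. Sox9 passed with Krt19, Epcam and Spp1, with r of 0.55, 0.42 and 0.58 (rho 0.62, 0.47 and 0.63, adjusted permutation p for r 0.00115, 0.0291 and 0.00275). Cftr passed with none of the genes, and its counts were the lowest. Without male WT replicate 3, an alternative chosen after the data were seen, 17 of the 36 pairs passed, all of them among the 19. Sox9 with Epcam and Krt18 with Epcam no longer did (adjusted permutation p = 0.0562 and 0.0535), and Krt7 with Krt19 had r = 0.53 (adjusted permutation p = 0.0226, n = 27).

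This covariation was not limited to duct genes. After the values were seen, each of the 9 genes was also compared with the mean log2 CPM of 8 lists of marker genes, which makes 72 relations. Spp1 followed the other cholangiocyte genes most closely (r = 0.82, rho = 0.80, adjusted permutation p = 0.00072 and 0.00288, and 0.79 without the 2 farthest mice), and Epcam did so with r = 0.70, Krt19 with 0.60 and Sox9 with 0.57 (adjusted permutation p = 0.00747, 0.0139 and 0.0127). Spp1 also moved with lipid-associated macrophage genes (r = 0.71), T cell genes (0.60), hepatocyte genes (0.59) and stellate cell genes (0.56), with adjusted permutation p of 0.00648, 0.0139, 0.00747 and 0.0295. Krt8 moved with T cell genes (r = 0.66) and Krt18 with hepatocyte genes (0.64) more than either did with the other cholangiocyte genes (0.43 and 0.41, adjusted permutation p = 0.0882 for each), and the difference between these correlations was not tested. Mesothelium genes, which share Krt7, Krt19, Krt8 and Krt18, had r of 0.40 with Krt7 and 0.12 with Krt8 (adjusted permutation p = 0.149 and 0.761), and their part in the Krt7 level was not tested.

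**Figure D4:**
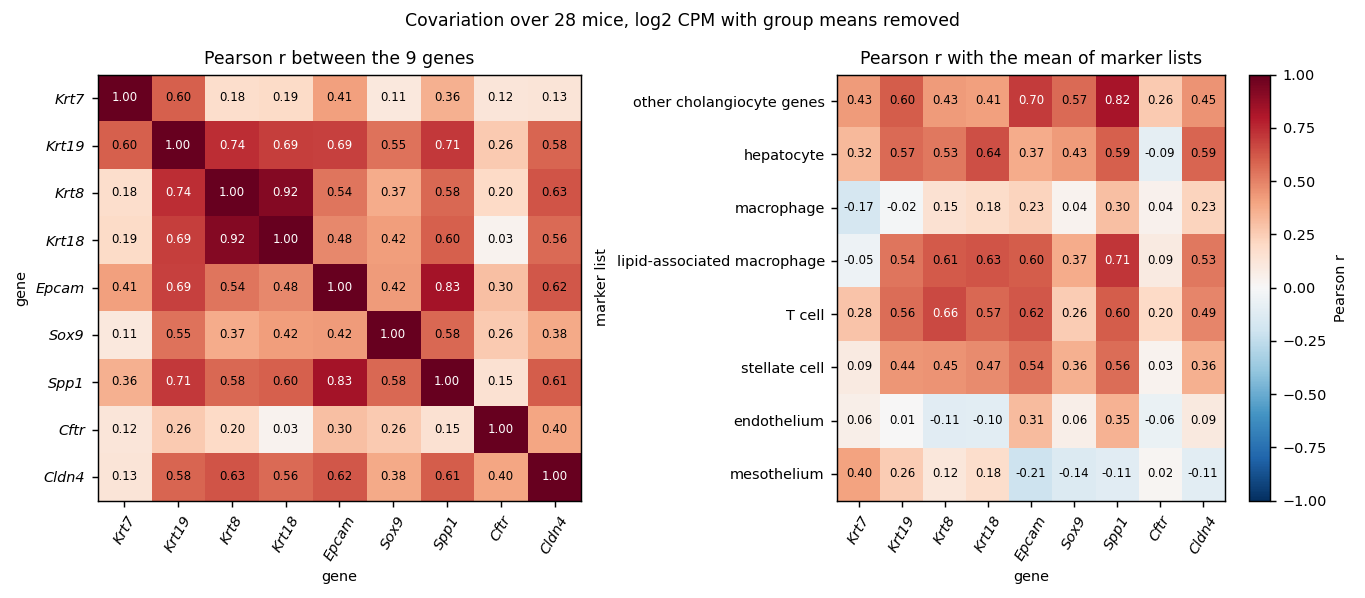
Pearson r over 28 mice of log2 CPM with group means removed, between the 9 genes (left) and between each gene (x axis) and the mean of 8 marker lists (right). Colour runs from -1 (blue) to 1 (red). The pairs Krt8 with Krt18 (0.92) and Epcam with Spp1 (0.83) stand out, Krt7 and Cftr are pale, and Spp1 has the highest value with the other cholangiocyte genes (0.82).

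Among 12255 genes with a mean log2 CPM of at least 0, those most like each of the 9 genes were read from the same residuals, over 28 mice and with no test. Spp1 was closest to Bicc1 (r = 0.86), an RNA-binding protein gene of ductal and renal epithelium, Mfge8 (0.85) and Serpinb6a (0.83), and Epcam to Mfge8 (0.80), Bicc1 (0.78) and the matrix gene Lum (0.76). Krt18 was closest to Nfkbib (0.92), Pop7 (0.90) and Rras (0.90), and Krt8 to Pdlim1 (0.89), Ccdc34 (0.87) and Ift43 (0.87). Krt19 was closest to Cracr2b (0.83), Gadd45gip1 (0.82) and Sac3d1 (0.82), and Krt7 to Cbarp (0.76), Tsc22d3 (0.68) and Rbbp4 (0.67). Sox9 was closest to Depp1 (0.70), Vasn (0.69) and Gdf15 (0.69), Cldn4 to Slc33a1 (0.83), Rexo2 (0.82) and Taldo1 (0.80), and Cftr to Gm4924 (0.66), Zfat (0.58) and Elovl3 (0.58). Median r over all these genes lay between -0.07 and 0.00 for each of the 9.

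Other genes of cholangiocytes gave a more mixed picture in males than the 9 markers. Of 19 listed and tested, 1 rose and 5 fell in male SIRT6-tg, beside 9.68% and 11.0% of all genes, and 15 estimates were below 0 (median log2 fold change -0.33). Elf3, an epithelial transcription factor, fell from 1.34 ± 0.574 to 0.430 ± 0.284 CPM, a log2 fold change of -1.66 ± 0.35 (SE, adjusted p = 0.000705 by edgeR), with 6 of the 7 male SIRT6-tg values under the lowest male WT value. Bicc1 fell by 0.81 on the log2 scale (adjusted p = 0.00245), the mucin-like surface antigen gene Cd24a by 0.59 (adjusted p = 0.0106) and St14, a membrane protease gene, by 0.83 (adjusted p = 0.0237). The St14 call was lost without male WT replicate 3, male WT replicate 6 or male SIRT6-tg replicate 2, where the change was -0.72, -0.69 and -0.74.

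Ggt1, the enzyme gamma-glutamyl transferase of bile duct membranes, fell by 1.36 (adjusted p = 0.0466 by edgeR) from a mean of only 0.130 CPM, and DESeq2 did not call it (-1.48, adjusted p = 0.0808). The call was also lost with no filter on low counts, with the replicate numbers as a block (-1.40, adjusted p = 0.0554), with each sex fitted separately (adjusted p = 0.0625) and without any of 9 libraries. Wfdc2, a secreted protease inhibitor gene, rose from 3.61 ± 1.25 to 6.93 ± 2.54 CPM, a log2 fold change of 0.93 (adjusted p = 0.00976), and with library size alone it did not pass (0.62, adjusted p = 0.0661). Tm4sf4, the most abundant gene of this list at 129 CPM, had a log2 fold change of -0.02. In females 0 of the 19 passed with edgeR or DESeq2, and 2 did at an unadjusted p under 0.05, beside 5.62% of all genes. Male and female genotype effects differed past the threshold in edgeR's test for Wfdc2 alone in this list (1.22, adjusted p = 0.0470). That call was lost under 3 other scalings and without any of 19 libraries. Over all genes, 1.2% were called higher in that test and 3.84% lower.

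Other cholangiocyte genes also differed between the sexes. Of the 19, edgeR called 1 higher and 4 lower in WT males, beside 6.65% and 5.71% of all genes. In WT, Prom1, a surface protein of progenitor cells, was 0.948 ± 0.368 CPM in males and 5.57 ± 2.76 CPM in females, a log2 difference of -2.56 (adjusted p = 4.43e-06 by edgeR). All 7 males were below all 7 females, as for 1.64% of all genes in WT. Slc10a2, the apical bile acid transporter, was 17.9 ± 7.16 CPM in males and 5.13 ± 4.88 CPM in females, a difference of 1.80 (adjusted p = 0.00855). The ciliary genes Pkhd1 and Dcdc2a were lower in males by 0.57 and 0.68 (adjusted p = 0.0350 and 0.00811) and Anxa13 by 0.84 (adjusted p = 0.0376), and these 3 calls were lost with library size alone. The Pkhd1 call was also lost without any of 7 libraries, and the Anxa13 call without any of 11 and with no filter on low counts (adjusted p = 0.0558). In SIRT6-tg, 1 of the 19 was called higher in males and 5 lower, beside 12.9% and 10.2% of all genes. Prom1 differed there by -2.83 and Slc10a2 by 2.36 (adjusted p = 9.78e-07 and 0.000732 by edgeR).

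Notch and YAP signalling direct biliary fate, and osteopontin and TWEAK act through integrins, CD44 and the receptor Fn14 (Tnfrsf12a). These counts in males stand beside 9.68% of all genes higher and 11.0% lower. One of 10 Notch pathway genes fell, the target gene Hey1 at -0.88 (adjusted p = 0.0175 by edgeR), which did not pass without male WT replicate 6 (-0.65). Under RLE scaling, where 35.7% of all called genes were higher, 2 of the 10 fell. With library size alone 3 fell, beside 18.9% of all genes called lower. One of 9 YAP pathway genes fell, the factor Tead1 at -0.60 (adjusted p = 0.0188). Of 9 receptor genes, 2 fell. Cd44 went from 28.8 ± 10.8 to 10.7 ± 3.59 CPM (-1.42, adjusted p = 2.61e-05) and Itga9 from 25.9 ± 5.04 to 17.5 ± 1.88 CPM (-0.57, adjusted p = 0.00904). With library size alone 8 of these 9 fell, under the scaling that called 18.9% of all genes lower. Cd44 is also abundant on leukocytes. In females 0 genes of these 3 lists passed with edgeR or DESeq2, or at an unadjusted p under 0.05, which 5.62% of all genes reached. In WT, Tnfrsf12a was higher in males by 0.62 (adjusted p = 0.0388), a call lost without any of 4 libraries, with no filter and with the replicate numbers as a block (0.59, adjusted p = 0.0508).

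Of 13 other keratins and filament partners, 10 could be tested and Krt20, Krt5 and Krt14 were below the level for testing. In males 1 of the 10 rose and 1 fell, beside the same 9.68% and 11.0% of all genes. Krt23, a stress-induced type I keratin, rose in male SIRT6-tg from 1.26 ± 0.573 to 3.63 ± 1.25 CPM (1.54, adjusted p = 0.00835 by edgeR), and Krt80 fell from 0.435 ± 0.190 to 0.149 ± 0.0568 CPM (-1.53, adjusted p = 0.0136). In females 0 of the 10 passed with edgeR or DESeq2, or at an unadjusted p under 0.05, which 5.62% of all genes reached. Krt23 was lower in WT males than in WT females by 1.54 (adjusted p = 0.0135).

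Markers of other cells moved in the same male comparison, where 9.68% of all genes rose and 11.0% fell. All 8 macrophage genes fell, and their summed level went from 354 to 1183 CPM in male WT (median 724) to 305 to 512 CPM in male SIRT6-tg (median 316). All 7 T cell genes fell, from 13.1 to 46.0 CPM (median 35) to 4.32 to 6.85 CPM (median 5.40), as did 5 of 7 lipid-associated macrophage genes, from 82.1 to 205 CPM to 62.2 to 91.6 CPM, and 7 of 8 stellate cell genes, from 394 to 652 CPM to 285 to 391 CPM. With the replicate numbers as a block 7 macrophage genes fell, and Clec4f did not pass (-0.54, adjusted p = 0.0673 by edgeR). The Clec4f call was also lost with no filter (adjusted p = 0.0694) and without any of 8 libraries. Among the stellate genes, the Reln call was lost with no filter and without any of 7 libraries, and the Dcn call without any of 2. Of the other lists, 3 of 8 hepatocyte genes rose (0 with library size alone). One of 7 endothelial genes fell (Pecam1, -0.37, a call lost with the block, with no filter and without any of 9 libraries). Of 6 mesothelium genes 0 passed with edgeR, and 1 had an unadjusted p under 0.05, beside 32.6% of all genes. In females 0 genes of these 7 lists passed with edgeR or DESeq2. An unadjusted p under 0.05 was found for 1 hepatocyte, 1 macrophage, 1 lipid-associated macrophage, 3 T cell and 1 endothelial gene, beside 5.62% of all genes. The summed level of the 9 genes was 313 to 589 CPM in male WT and 329 to 592 CPM in male SIRT6-tg, of which Krt18 made up 51.4% over all mice. Krt8 averaged 125 CPM and Spp1 49.6 CPM over all mice, and Sox9, the next gene, 5.82 CPM. The sum thus consists mostly of Krt18 and Krt8, which hepatocytes share, and is no measure of ducts alone. The part of the other cell types in the Spp1 and Sox9 levels was not tested.

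**Figure D5:**
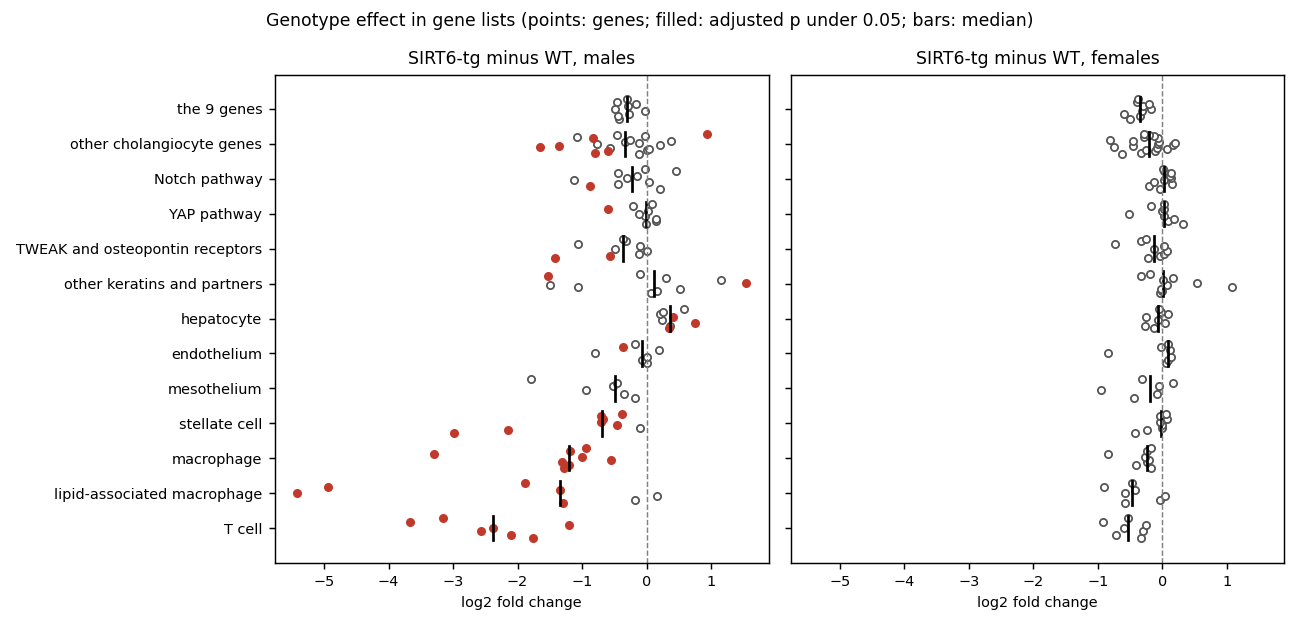
Log2 fold changes of SIRT6-tg against WT (x axis) for the genes of each list in males (left) and females (right). Points are genes, filled red points have an adjusted p under 0.05, and black bars are list medians. The 9 duct genes lie between -0.50 and -0.02 in males with none filled, whereas macrophage and T cell genes are all filled and below 0 in males.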

How the data were processed

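RNA from whole liver was sequenced from 28 mice. Per the labels, the deposited table holds raw counts per Ensembl gene, made by the authors with STAR 2.5.0a on the mm10 genome and with HTSeq, using uniquely mapped reads. The strand setting was not given in the sources used here. No sample column was left unmapped (0). Totals of 18758863 to 35393069 reads set the precision, and the floor for a count of 0 covers counting error only. Gene names came from GENCODE annotation of the same build, with 49326 of 49585 identifiers matched, and 129 of 129 list genes matched. Groups were read from sample titles.

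Genes with a mean of at least 0.5 after DESeq2 size factors were kept (21583). edgeR 4.0.16 in R 4.3.3 was fitted to all 28 libraries with TMM factors and robust quasi-likelihood tests, and p-values were Benjamini-Hochberg adjusted over all genes (threshold 0.05). Intervals are 95% intervals of that fit. DESeq2 1.42.0, which the study's methods name, was an alternative. The edgeR fit was tested on simulated data for the genotype effect in males, and DESeq2 was not. CPM values are TMM-scaled, and lengths are those of the principal transcript. Ratios used an offset of 0.5 and exact permutation tests written with numpy 2.4.6, adjusted over 4 tests. Covariation used a prior count of 2, with ranks from scipy 1.17.1. Alternatives covered scaling, filters, the replicate number as a block, each sex alone and leaving out each library.

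The members, the 14 other lists and the tests were chosen with earlier results of these data known. Named genes were all members, Sirt6, up to 5 genes per list with the lowest adjusted p among those passing in males, in females or between WT sexes, the highest and lowest gene as markers, and the 3 genes most correlated with each member. Ggt1, a sixth gene of its list, was named after its values were seen, and lists of other cells are given mainly by counts and summed levels. An item of the lists that this rule would name is not reported here. Libraries are taken as separate mice. Same-numbered libraries of different groups were not paired. No 2 libraries of the same group agreed within sampling noise, and libraries of different groups were not compared in this way. Reads of Krt8 could be shared with its pseudogene Krt8-ps (0 to 8 reads) and with Gm36026, those of Spp1 with Gm42793 (0 to 4 reads) and those of Cftr with Gm15592 (0 to 1 reads).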

Additional observations from a re-analysis of the deposited data

Results flagged for a closer look

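One group value stood apart. Of 44 groups of values tested for a lone extreme, covering the 9 genes and the 2 ratios in 4 groups, the lowest Krt8 to Krt18 log2 ratio in male SIRT6-tg, -1.31, lay far from the others of its group. Chance gives such a value in about 1 in 20 groups. No CPM value of the 9 genes stood apart in this way.

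None of the 9 genes showed a genotype effect that differed between males and females. The difference, as male effect minus female effect in log2, did pass the threshold in edgeR's test for Sirt6 itself (3.29). Over all genes tested, 1.2% were called higher in that test and 3.84% lower. It called 1 of 19 other cholangiocyte genes (Wfdc2, 1.22), 1 of 9 TWEAK and osteopontin receptor genes (Cd44, -1.20) and 1 of 8 hepatocyte genes (Fgb, 0.66). The Wfdc2 value did not pass under RLE scaling (1.18), upper-quartile scaling (1.15), library size alone (0.90), no filter (1.22) or the replicate block (1.20), nor without any of 19 libraries. Fgb did not pass with library size alone (0.37), and Cd44 did not pass without male WT replicate 7 (-1.10).

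In the same test, 1.2% of all genes were called higher and 3.84% lower. Of 8 macrophage genes, 2 were called, Cd68 (-1.07) and Marco (-2.45). Among 7 lipid-associated macrophage genes, Gpnmb (-4.84) and Mmp12 (-4.04) differed. Among 7 T cell genes, Cd3g (-1.79), Cd3e (-2.27), Cd8a (-2.74) and Nkg7 (-2.62) differed, and among 8 stellate cell genes, Col1a1 (-2.57), Col3a1 (-1.92) and Pdgfrb (-0.68). Cd68 did not pass without male WT replicate 7 (-0.95). Spp1, which macrophages and stellate cells can also express, had a difference of 0.07 (interval -0.59 to 0.72).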

How the results depend on the processing

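Of 1583 values of the 9 genes under alternatives, 1482 kept their direction and side of the threshold, 6 passed it newly, 2 no longer passed, and 93 changed sign. None that changed sign had passed the threshold. The cause was not tested. With library size alone 3 of the 9 genes passed in males, and 1863 genes in the sex difference of the genotype effect and 4212 in the WT sex difference passed, against 1089 and 2669. In females, calls over all genes numbered 6, against 2 with each sex alone, 44 with DESeq2 and 3 to 16 without 1 library.

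The sex difference of the genotype effect changed sign for Krt7 under RLE scaling (-0.019), upper-quartile scaling (-0.048), library size alone (-0.28), the replicate block (-0.018) and DESeq2 (-0.020). It did so for Krt8 under RLE scaling (-0.0097), upper-quartile scaling (-0.041), library size alone (-0.27) and DESeq2 (-0.0097), for Krt18 with library size alone (-0.014), and for Spp1 (-0.016 and -0.25) and Cftr (-0.0098 and -0.22) with upper-quartile scaling and library size alone. In WT, library size alone turned the sex difference of Krt19 (0.15), Cldn4 (0.16) and Sirt6 (0.14), and the block that of Sirt6 (0.0017).

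Without 1 library, values changed sign or call over these ranges. Genotype in males: Krt18 -0.13 to 0.044, Sox9 -0.69 to -0.36, Cftr -0.73 to 0.025, and 0 to 1 genes called. Difference between sexes: Krt7 -0.27 to 0.26, Krt19 -0.50 to 0.063, Krt8 -0.077 to 0.12, Sox9 -0.29 to 0.037, Spp1 -0.066 to 0.27, Cftr -0.35 to 0.52, Cldn4 -0.35 to 0.24. WT sexes: Krt19 -0.43 to 0.13, Krt18 0.35 to 0.50, Cldn4 -0.25 to 0.22, Sirt6 -0.15 to 0.24. SIRT6-tg sexes: Epcam -0.14 to 0.039, Spp1 -0.81 to -0.58, Cldn4 -0.31 to 0.22. Ratios by genotype: Krt19 to Krt7 -0.084 to 0.44 in males and -0.22 to 0.10 in females. The Krt8 to Krt18 ratio in males kept its sign (-0.15 to -0.074). Its unadjusted exact permutation p was 0.0967 with all libraries, 0.0315 without male WT replicate 5 and 0.0344 without male SIRT6-tg replicate 5. The call of this ratio rests on the adjusted p, and these p-values were not adjusted, so they show no change of call.

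The replicate block changed no call among the 9 genes. Numbers were not treated as pairs, since 12 of 42 same-numbered pairs correlated above 0.1 (range -0.35 to 0.33). Covariation passed for 20 pairs with a prior count of 0.5, 19 with library size alone and 17 without male WT replicate 3. Krt7, Cldn4 and Cftr rest on few reads, which limits their precision.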

Other observations

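Genes of organs dissected beside the liver were read as markers of carry-over. Of 10 pancreas genes, 8 could be tested and Clps and Amy2a5 were below the level for testing, and Cela1, which the liver also expresses, made up 97.2% of the list's summed level. In males Cela1 rose (0.75), a call lost under RLE scaling (0.71), upper-quartile scaling (0.67), library size alone (0.44) and no filter, and without any of 9 libraries. Cela3b and Ctrb1 also passed in males, but their reads came almost wholly from male WT replicate 3. That library held 22 Cela3b and 45 Ctrb1 reads, the other male libraries at most 1 of each, and neither gene passed with the replicate block (adjusted p = 0.0697 and 0.105) or with each sex fitted separately (0.174 and 0.0895). In females 0 passed with edgeR or DESeq2, or at an unadjusted p under 0.05, which 5.62% of all genes reached. Of 8 gallbladder and intestine genes, 5 could be tested and Muc5b, Cdx1 and Cdx2 were below the level for testing. In males Fabp2 rose (0.69), a call lost with library size alone (0.39, adjusted p = 0.0592 by edgeR). Fabp2 made up 74.85% of the summed level of this list. In males 9.68% of all genes rose and 11.0% fell. In females 0 of this list passed with edgeR or DESeq2 and 1 had an unadjusted p under 0.05, beside 5.62% of all genes.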
